A study of Drosophila melanogaster with 4 samples.

Results

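Dscam1 and 8 other genes of axon guidance signalling, Nrg, Lar, robo1, dock, Pak, Abl, ena and trio, were followed in cultured Drosophila melanogaster BG3 cells after RNA interference against Cap-H2. They are 9 of the 8806 rows of genes and transposable element families in the table. The rows were found by their symbols. Dscam1 was included because it had passed the test between these same groups, so its difference is given as a description. The other 8 were included as neural adhesion receptors or as proteins that act inside the cell below such receptors.

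BG3 is a cell line from the larval central nervous system, and the single line is the source of all libraries. The Cap-H2 knockdown group, labelled CapH2 Knockdown, received dsRNA against the condensin II subunit Cap-H2. The Brown control group, labelled WT, received dsRNA against Brown, an eye pigment gene. In both groups cells were given 20 µg of dsRNA for 30 min and grown for 4 days in medium with serum and insulin, with 2 libraries per group. Nothing in the labels ties the libraries to separate cultures, and p-values therefore reflect only the spread between these libraries, which may be technical.

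Growing axons are steered by receptors on their surface that meet ligands on other cells or in the matrix. The receptors signal to adaptors, kinases and exchange factors, which steer the growth of actin filaments. Dscam1 is a receptor of the immunoglobulin superfamily whose alternative exons give a very large number of isoforms, and in fly axon guidance it signals through the adaptor Dock and the kinase Pak. Robo1 is the receptor for the repellent Slit, Nrg is the fly relative of the vertebrate adhesion molecule L1, and Lar is a receptor tyrosine phosphatase. Abl is a cytoplasmic tyrosine kinase, Ena promotes actin filament growth, and Trio activates the GTPase Rac.

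Cap-H2 stood at 543 and 555 normalized read counts in the knockdown libraries and at 880 and 873 in the control libraries, which leaves 62.7% of the control level, a partial reduction measured in RNA only. If each step of the deposited values is 1 read, the libraries held from 21539511 to 21935781 reads on genes and element families. Of 7690 tested rows, 25 were higher and 5 lower in the knockdown at an adjusted p of 0.05 in limma. The median log2 fold change of all tested rows was -0.00.

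Dscam1 was higher in the knockdown by a modest amount, and 7 of the 8 other members had a positive log2 fold change that did not pass the test. Positive values made up 49.9% of all tested rows. They made up 63.2% of the longest of 5 length classes of protein-coding genes, described below, which holds 8 of the 9 members. Of the 9 members, 1 was called higher, against 0.325% of all tested rows, and 0 were called lower, against 0.065%. With Dscam1 left out, 0 of 8 passed limma and none of the 8 had an unadjusted p under 0.05. The 8 log2 fold changes ran from -0.05 to 0.07, with adjusted p from 0.75 to 0.98. The median of all 9 was 0.02. In 4 of the 9, Dscam1, dock, Pak and trio, both knockdown libraries exceeded both control libraries, which held for 19.2% of all tested rows. In 0 of the 9 both lay below, which held for 19.5%. Since Dscam1 had been chosen on this contrast, nothing is read from these shares.

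**Figure D1:**
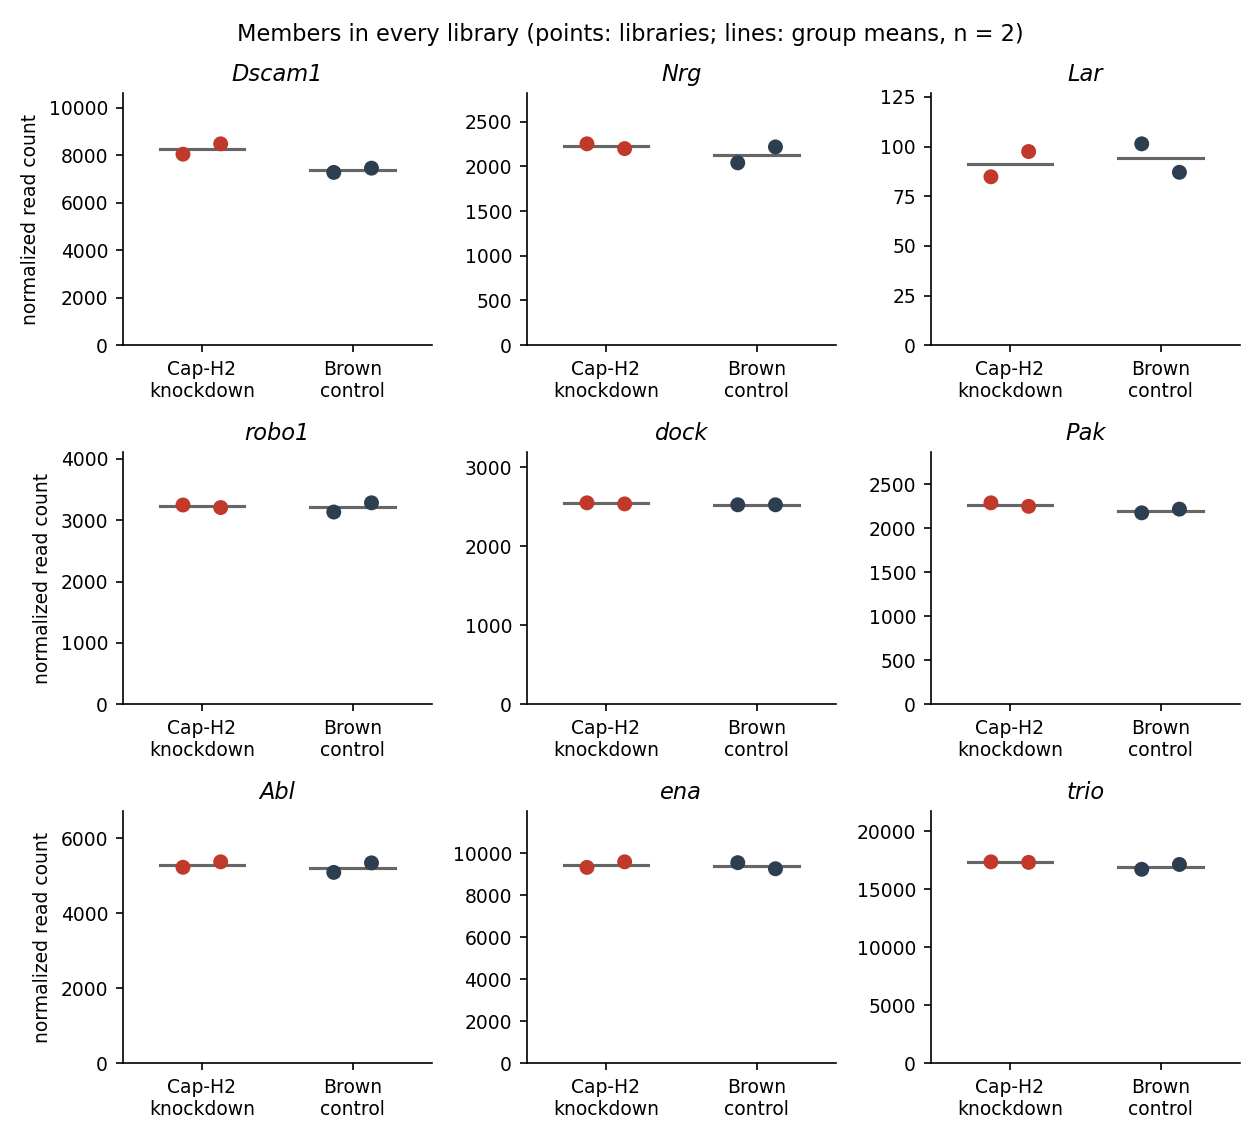
Normalized read counts (vertical axes, starting at 0) of the 9 members in the Cap-H2 knockdown (red) and Brown control (dark) libraries. Points are libraries and lines are group means (n = 2). Dscam1 shows both knockdown points above both control points, and Lar is the one member counted around 100.

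Among the receptors, Dscam1 (FBgn0033159, a protein-coding gene, dm6 chromosome arm 2R, 7317924 to 7381899, minus strand) had normalized read counts of 8038 and 8473 in the knockdown libraries and of 7271 and 7449 in the control libraries. Both knockdown libraries lay above both control libraries, and knockdown library 2 lay farthest from the control. The means were 8256 ± 308 in the knockdown and 7360 ± 126 in the control (SD, n = 2 each), a level 12.2% higher in the knockdown. The log2 fold change was 0.17 (SE 0.03, 95% interval 0.09 to 0.24). Its limma adjusted p of 0.036 is the value that chose the gene, and it was the 28th smallest p of the 30 called rows. By size, 602 tested rows, Dscam1 among them, had an increase at least as large. In the authors' deposited table the adjusted p of Dscam1 was 0.030.

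The call of Dscam1 depended on the scaling, on the minimum for low rows and on the length correction. Its size moved with the library left out, while its direction did not turn under any setting tried. Without knockdown library 2 the log2 fold change was 0.13 (SE 0.04), and without knockdown library 1 it was 0.20 (SE 0.04). With control library 1 left out the log2 fold change was 0.15 (SE 0.04), and with control library 2 left out 0.18 (SE 0.04). The prior degrees of freedom were 14.4 in the main fit, 32.9 and 36.4 without knockdown library 1 and 2, and infinite without either control library. Adjusted p of fits that left out a library are therefore not comparable with that of the main fit. The gene did not pass with quantile normalization (adjusted p = 0.24), with median centring (0.055), with no minimum on low rows (0.076) or after removal of a trend with exonic length (0.19).

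**Figure D2:**
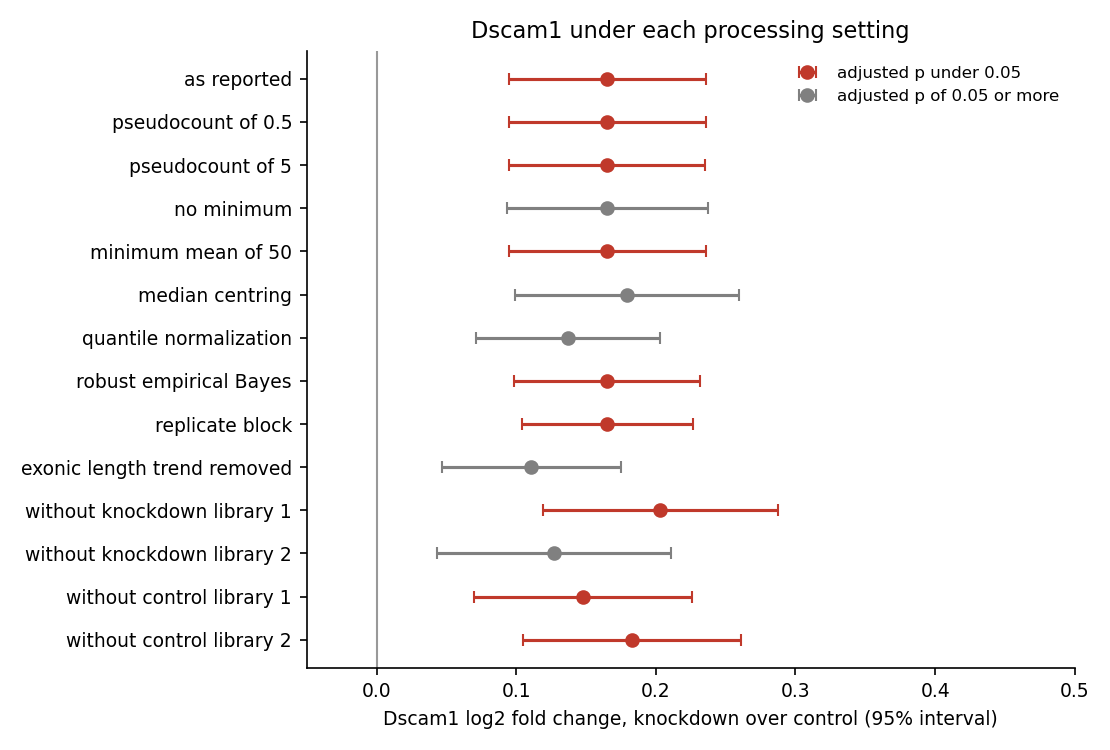
Log2 fold change of Dscam1 in the knockdown over the control (horizontal axis, points with 95% intervals from limma) under each processing setting (rows). Red marks an adjusted p under 0.05 and grey one of 0.05 or more. All estimates lie between 0.11 and 0.20, and 5 of them are grey.

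Dscam1 is also the longest member by exon sequence. The union of its annotated exons spans 26.5 kb, longer than in 99.9% of the 7291 tested protein-coding genes, whose median is 2.20 kb. The annotation lists 75 transcripts and 118 distinct exons for it, and the longest single transcript is 9.14 kb, because alternative exons replace each other. The deposited values are sums over the gene and say nothing of which alternative exons were used. Antisense RNAs on the opposite strand share 743 and 278 bp of the exons, and the sources used here do not give the strand setting of the counting.

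Across the tested protein-coding genes the log2 fold change moved with exonic length. With the genes cut into 5 length classes of equal size, the shortest reached up to 1.22 kb and had a median log2 fold change of -0.02. The longest class, from 4.32 kb, had a median of 0.02. A positive value was found for 63.2% of genes in the longest class and for 39.6% in the shortest. Of the 9 members, 8 belonged to the longest class and dock to the next one. After the trend was removed Dscam1 had a log2 fold change of 0.11 (SE 0.03), and 5 of the 9 members kept a positive value. Among the 215 tested genes with more than 10 kb of exon the median was 0.04, and 2 were called, both higher, Dscam1 and mtd (named after its value was seen, log2 fold change 0.17). The part of this trend in the difference of Dscam1 was not tested beyond that correction.

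**Figure D3:**
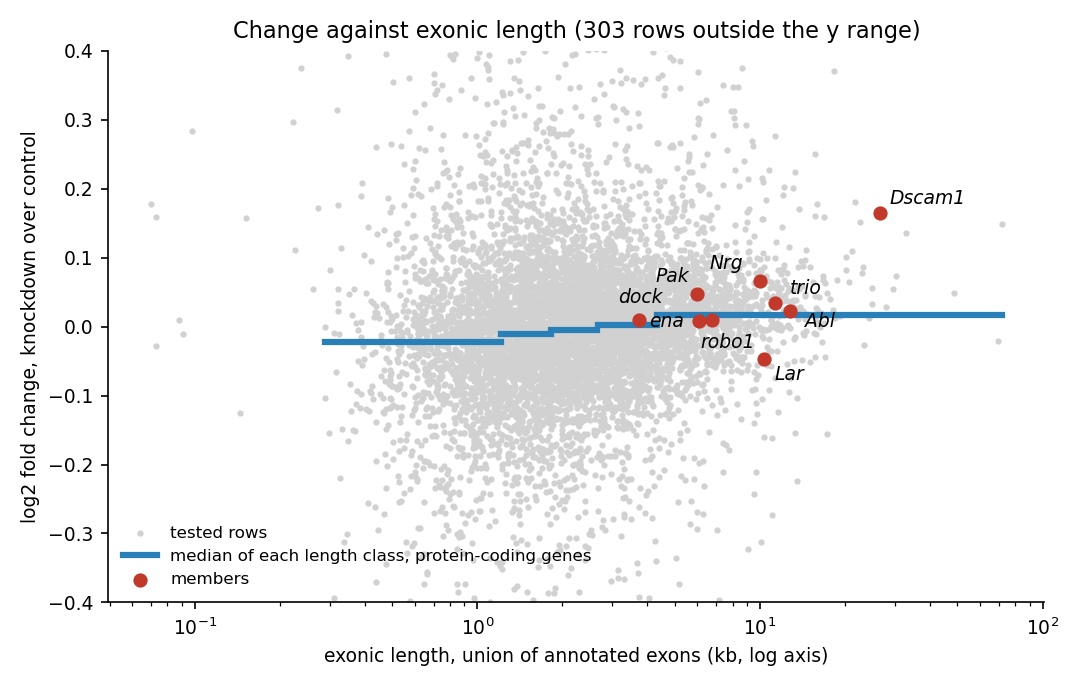
Log2 fold change in the knockdown over the control (vertical axis, cut at 0.4 in both directions) against exonic length in kb (log axis). Grey points are tested rows, blue bars the median of each of 5 length classes of protein-coding genes and red points the 9 members. The bars climb from -0.02 to 0.02, and Dscam1 lies at the long end, above its bar.

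Nrg (FBgn0264975, X, 8517373 to 8555170, plus strand) had 2254 and 2200 normalized read counts in the knockdown libraries, against 2041 and 2219 in the control libraries. Control library 1 was the low one, and the groups overlapped. The log2 fold change was 0.07 (SE 0.05, 95% interval -0.03 to 0.16, limma adjusted p = 0.75). Without control library 2 it was 0.13 and without control library 1 it was 0.01. The interval overlaps that of Dscam1, and a difference between Nrg and Dscam1 was not tested.

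robo1 (FBgn0005631, 2R, 22692524 to 22700970, minus strand) had 3248 and 3206 normalized read counts in the knockdown libraries and 3133 and 3283 in the control libraries. Both knockdown values lay between the control values. Its log2 fold change of 0.01 (SE 0.04, 95% interval -0.07 to 0.09, limma adjusted p = 0.98) turned negative in 2 of the 4 fits that left out a library.

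Lar (FBgn0000464, 2L, 19586623 to 19732069, plus strand) was the member with the fewest reads. It had 84.8 and 97.5 normalized read counts in the knockdown libraries, against 101 and 87.0 in the control libraries, and the groups overlapped. The log2 fold change was -0.05 (SE 0.17, 95% interval -0.40 to 0.31, limma adjusted p = 0.97). The interval thus includes levels from 0.757 to 1.24 of the control. Of its 10337 bp of exon, 8637 bp, or 83.6%, are shared with CG46244, a protein-coding gene annotated on the same strand. Reads there cannot be assigned to either gene with certainty, so the level of Lar is uncertain.

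Among the effectors, dock (FBgn0010583, 2L, 825969 to 833241, plus strand), the adaptor next to Dscam1 in the pathway, was almost level across libraries. It had 2551 and 2537 normalized read counts in the knockdown libraries and 2526 and 2526 in the control libraries. Both knockdown values were higher, on average by 0.715% of the control. Its log2 fold change was 0.01 (SE 0.04, 95% interval -0.07 to 0.09, limma adjusted p = 0.97).

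Pak (FBgn0267698, 3R, 6350896 to 6361614, plus strand), the kinase that Dock brings to the membrane, had 2289 and 2250 normalized read counts in the knockdown libraries, against 2176 and 2218 in the control libraries. The groups did not overlap, but the log2 fold change of 0.05 (SE 0.04, 95% interval -0.04 to 0.13) did not pass limma (adjusted p = 0.81). trio (FBgn0024277, 3L, 995982 to 1034875, minus strand), the most highly counted member, had 17378 and 17332 in the knockdown libraries and 16734 and 17151 in the control libraries. Its groups did not overlap either, and the log2 fold change was 0.03 (SE 0.03, 95% interval -0.02 to 0.09, limma adjusted p = 0.80). It was 0.0040 after the length correction and 0.017 without control library 1. Exons of trio share 179 bp with CG9205 on the opposite strand.

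Abl (FBgn0000017, 3L, 16615866 to 16647882, minus strand) had 5228 and 5373 normalized read counts in the knockdown libraries and 5091 and 5345 in the control libraries. In both groups library 2 was the higher one, and the groups overlapped. The log2 fold change was 0.02 (SE 0.03, 95% interval -0.05 to 0.10, limma adjusted p = 0.91). The reference annotation places a copy of an LTR retrotransposon over 5271 bp of its 12819 bp of exon, on the opposite strand. ena (FBgn0000578, 2R, 19141632 to 19163705, plus strand), known in flies as an antagonist of Abl, had 9333 and 9597 in the knockdown libraries against 9558 and 9268 in the control libraries. Its log2 fold change was 0.01 (SE 0.03, 95% interval -0.06 to 0.07, limma adjusted p = 0.97), and the groups overlapped.

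**Figure D4:**
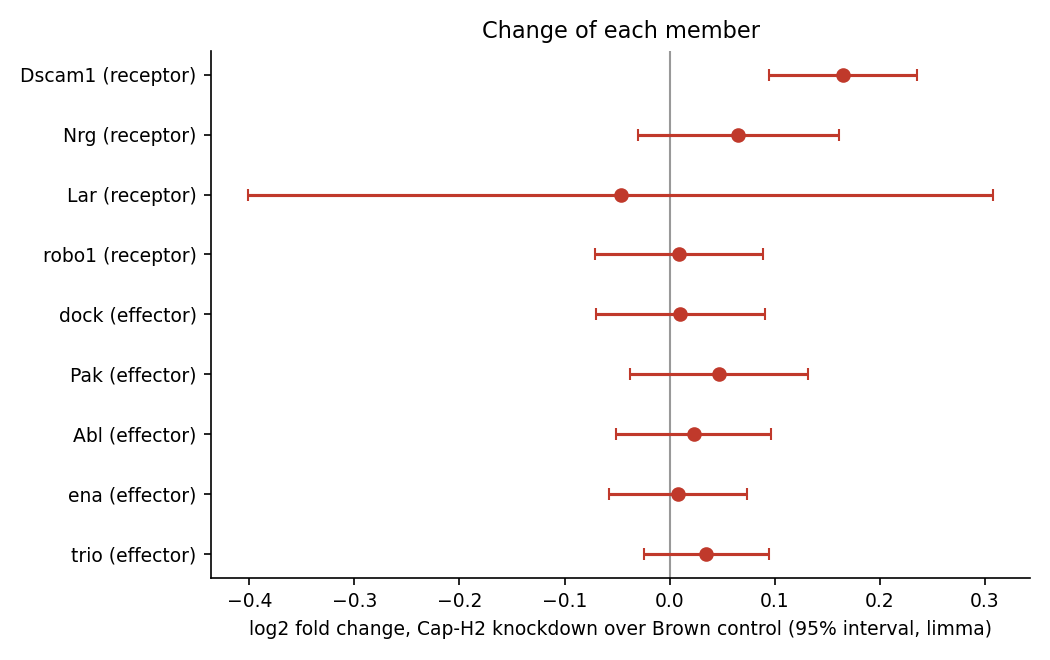
Log2 fold change of each member in the knockdown over the control (horizontal axis) with its 95% interval from limma, receptors above effectors. The interval of Dscam1 runs from 0.09 to 0.24, that of Lar from -0.40 to 0.31, and the 8 intervals other than that of Dscam1 include 0.

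Set on a common scale of normalized read counts per kb of exon, the members covered a wide range of levels. ena stood at 1558 ± 30.7 in the knockdown and 1549 ± 33.7 in the control (SD, n = 2 each), and trio at 1538 ± 2.91 in the knockdown and 1502 ± 26.1 in the control. The order of these top members switched between libraries, so on this scale their levels did not differ beyond the spread. dock followed with 681 in the knockdown and 676 in the control, then robo1 with 475 in the knockdown and 472 in the control. Abl stood at 413 in the knockdown and 407 in the control, and Pak at 380 in the knockdown and 368 in the control. Dscam1 stood at 312 ± 11.6 per kb in the knockdown and 278 ± 4.77 in the control, Nrg at 223 in the knockdown and 213 in the control, and Lar at 8.81 in the knockdown and 9.11 in the control. From dock to Lar the order was the same in all 4 libraries. In the control, Lar was above 4.58% of tested protein-coding genes by this measure, and ena above 89.7% of them.

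That order depends on the length used. Per kb of the longest annotated transcript Dscam1 stood at 903 in the knockdown and 805 in the control, above dock, whose longest transcript equals its exon union. On that scale ena stood at 2143 in the knockdown and 2131 in the control, apart from trio at 1825 in the knockdown and 1782 in the control. Pak, at 437 in the knockdown and 423 in the control, changed places with Abl, at 422 in the knockdown and 415 in the control.

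**Figure D5:**
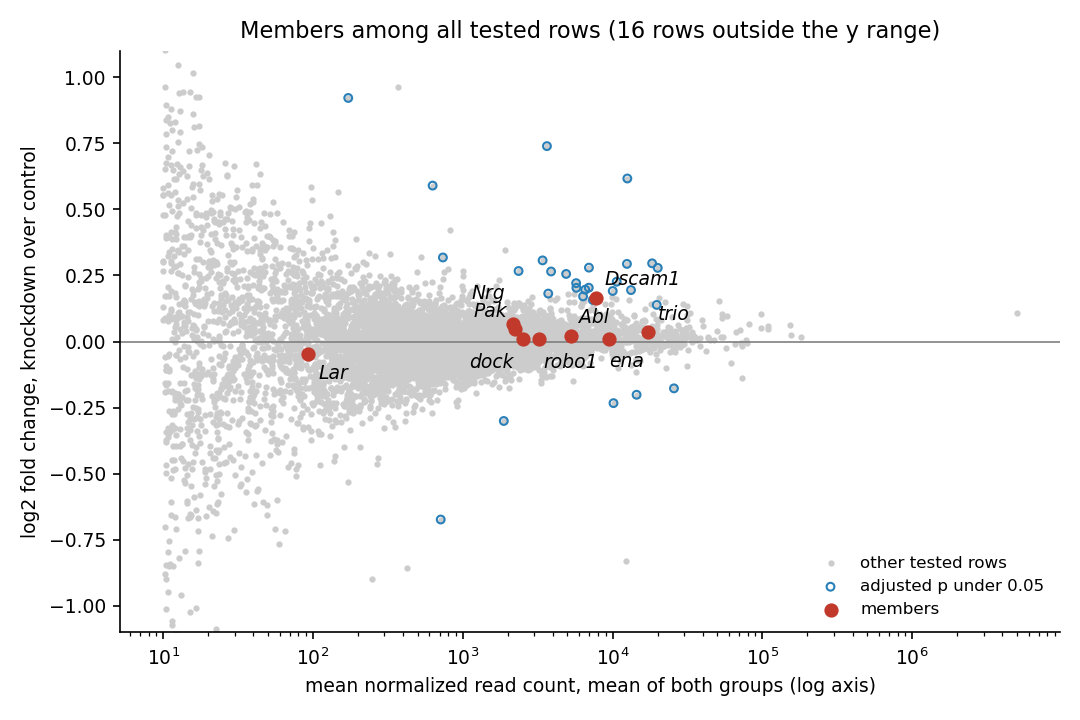
Log2 fold change in the knockdown over the control (vertical axis, 16 rows lie outside it) against the mean normalized read count of both groups (log axis). Grey points are tested rows, blue rings rows with an adjusted p under 0.05 and red points the 9 members. Dscam1 sits at the lower edge of the ringed rows, the other members near 0.

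The wider set of adhesion, guidance and cytoskeleton genes gave no call. Over 6 lists with 92 genes, 81 were tested, and 0 were called higher and 0 lower in limma, against 0.325% and 0.065% of all tested rows. An unadjusted p under 0.05 was found for 9 of the 81, against 8.13% of all tested rows. A positive log2 fold change was found for 59 of them, against 49.9% of all tested rows, and the median was 0.02. In the longest length class of protein-coding genes the share was 63.2%, and the part of exonic length in this count was not tested.

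Other receptors and ligands did not pass. In the immunoglobulin superfamily list, 0 of 11 tested genes passed and 2 had an unadjusted p under 0.05. These were rst, an adhesion receptor of the developing eye, with 9000 and 9063 normalized read counts in the knockdown libraries and 8322 and 8575 in the control libraries, and sns, an adhesion receptor of myoblast fusion, with 44.9 and 46.7 in the knockdown libraries and 73.8 and 66.0 in the control libraries. The log2 fold changes were 0.10 (SE 0.03, limma adjusted p = 0.30) for rst and -0.60 (SE 0.20, limma adjusted p = 0.38) for sns.

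In the list of guidance ligands and their receptors, 0 of 25 tested genes passed and 3 had an unadjusted p under 0.05. fra, the Netrin receptor, had 2439 and 2379 in the knockdown libraries against 2081 and 2303 in the control libraries (log2 fold change 0.14, SE 0.05, limma adjusted p = 0.38). Sema1a, a transmembrane semaphorin, had 3320 and 3414 in the knockdown libraries against 3671 and 3570 in the control libraries (log2 fold change -0.10, SE 0.04, limma adjusted p = 0.40). The values of both genes did not overlap between the groups, fra being higher and Sema1a lower in the knockdown. Without control library 1 the log2 fold change of fra was 0.06 (SE 0.05), and without control library 2 it was 0.21 (SE 0.05).

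Close relatives of the members, named after their values were seen, did not pass. Dscam4 had 0.01 (SE 0.05), robo2 0.08 (SE 0.05) and the Robo ligand gene sli 0.05 (SE 0.03). Among relatives of Pak, Pak3 had 0.01 (SE 0.03) and mbt 0.05 (SE 0.06). Limma adjusted p for these 5 ran from 0.68 to 0.98. Of the 5 receptor tyrosine phosphatases other than Lar, Ptp52F had the lowest log2 fold change at -0.21 (SE 0.12, limma adjusted p = 0.69) and Ptp99A the highest at 0.12 (SE 0.08, limma adjusted p = 0.71). sli was abundant, at 3276 normalized read counts per kb of exon in the knockdown and 3162 in the control. Dscam2, Dscam3 and robo3 had no matching row and were not analysed here.

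Receptor tyrosine phosphatases and partners of Lar gave 0 calls among 10 tested genes, with 9 positive values, against 49.9% of all tested rows. There were 2 unadjusted p under 0.05. These belonged to the glypicans dlp, known as a ligand of Lar, and dally. dlp had 1102 and 1035 normalized read counts in the knockdown libraries against 938 and 910 in the control libraries, and the groups did not overlap (log2 fold change 0.21, SE 0.06, limma adjusted p = 0.18). dally had 4791 and 4627 in the knockdown libraries against 4271 and 4403 in the control libraries (log2 fold change 0.12, SE 0.04, limma adjusted p = 0.24).

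Partners of Dock gave 0 calls among 11 tested genes, with a median log2 fold change of 0.01 and 1 unadjusted p under 0.05. Vrp1, a verprolin that works with WASp on actin, had 2567 and 2783 in the knockdown libraries against 2399 and 2454 in the control libraries (log2 fold change 0.14, SE 0.04, limma adjusted p = 0.29). For InR, the insulin receptor, the log2 fold change was 0.04 (SE 0.04, limma adjusted p = 0.82). Partners of Abl and Ena in the actin network gave 0 calls among 20 tested genes, with 16 positive values, against 49.9% of all tested rows. There was 1 unadjusted p under 0.05. shot, a linker of actin and microtubules, had 10345 and 10319 in the knockdown libraries against 9987 and 9655 in the control libraries (log2 fold change 0.07, SE 0.03, limma adjusted p = 0.55). Arpc2, a subunit of the Arp2/3 complex, had 0.06 (SE 0.03, limma adjusted p = 0.68).

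Genes known to act on Dscam1 expression or splicing gave 0 calls among the 4 tested, hiw, wnd, Fmr1 and Hrb87F, and 0 unadjusted p under 0.05. wnd, a kinase that raises Dscam1 protein in fly neurons, had 756 and 699 normalized read counts in the knockdown libraries against 670 and 686 in the control libraries (log2 fold change 0.10, SE 0.06, limma adjusted p = 0.72). Fmr1, an RNA-binding protein that binds Dscam1 mRNA, had 0.04 (SE 0.03, limma adjusted p = 0.82), with overlapping groups.

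Among 6817 rows with a mean of at least 50, the 5 whose centred log2 profile over the 4 libraries lay nearest to that of Dscam1 were CG10600, mfrn, sprt, unc-13 and CG2765. Their Euclidean distances from Dscam1 ran from 0.02 to 0.03 on the log2 scale. The members lay farther away, from 0.14 for Pak to 0.29 for Lar. Being farther than rows picked as the nearest says little. Counted among all rows with that mean, their ranks by nearness to Dscam1 ran from 992 for Pak to 5578 for Lar. unc-13, a gene of synaptic vesicle priming, had 52599 and 56296 in the knockdown libraries against 48187 and 49771 in the control libraries (log2 fold change 0.15, SE 0.03, limma adjusted p = 0.059). For mfrn, a mitochondrial iron carrier, the log2 fold change was 0.15 (SE 0.04, limma adjusted p = 0.14). All profiles share the same 4 libraries, and the distance is a description.

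Markers of neurons were mostly low in these cells. Of 9 neuronal markers, 3 had a row. elav, a pan-neuronal RNA-binding protein, had 564 and 577 normalized read counts in the knockdown libraries and 559 and 531 in the control libraries, while the synaptic genes nSyb and brp were each under the minimum for testing. The summed neuronal markers ran from 571 to 582 in the knockdown and from 538 to 565 in the control. Blood cell markers were represented by 7 of 8, led by drpr, with sums from 19493 to 19570 in the knockdown and from 19460 to 19556 in the control. Most of this sum was drpr, srp and crq, while NimC1 stood between 5.98 and 7.87 over all libraries. drpr had the highest counts of that list and was the only 1 of the 6 tested blood cell markers with a positive log2 fold change, while the median of the 6 was -0.08. Hml, a hemocyte gene named after its value was seen, had 221 and 239 in the knockdown libraries and 339 and 287 in the control libraries, the lowest log2 fold change of the list at -0.44 (limma adjusted p = 0.10). Pxn and eater, chosen in the same way, also lay lower in the knockdown without overlap, as did 19.5% of all tested rows. Pxn had 658 and 655 in the knockdown libraries and 687 and 726 in the control libraries. eater had 52.8 and 54.8 in the knockdown libraries and 77.7 and 55.0 in the control libraries, so only control library 1 stood apart. Glial markers, 6 of 7, led by moody, summed to 8819 to 8842 in the knockdown and 8984 to 9183 in the control. The gene of the glial factor repo stood between 76.0 and 90.5 over all libraries.

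Epithelial markers, 4 of 4, led by cora, summed to 14065 to 14478 in the knockdown and 13518 to 13942 in the control. Of these 4, 2 had an unadjusted p under 0.05, against 8.13% of all tested rows. In 3 of the 4 both knockdown libraries lay above both control libraries, against 19.2% of all tested rows, while the groups of Nrx-IV overlapped. For cora the log2 fold change was 0.08 (SE 0.03, limma adjusted p = 0.55). Neuroblast markers, 4 of 6, led by insc, summed to 206 to 225 in the knockdown and 192 to 206 in the control. Muscle markers, 4 of 6, led by Act57B, summed to 7026 to 7393 in the knockdown and 7219 to 7710 in the control. Nearly all of the muscle sum was Act57B and Mef2, while Mhc stood between 9.14 and 12.0 and Tm2 between 1.00 and 5.90 over all libraries. No marker with a row was at 0 in any library, and no marker gene was called. The sums of neuronal and epithelial markers were higher and those of glial markers lower in the knockdown without overlap. Of all tested rows, 19.2% lay higher and 19.5% lower without overlap, so nothing is read from the separation of these sums. Nearly all of the neuronal sum was elav (log2 fold change 0.07, SE 0.07, limma adjusted p = 0.84). Most of the glial sum was moody and nrv2, and the groups of each of these overlapped. The sums of neuroblast markers met at 206.1 in knockdown library 2 and control library 2. The part of these markers, and of Hml, Pxn and eater, in the difference of Dscam1 was not tested. In bulk RNA fewer cells of a type and less RNA per cell cannot be told apart.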

How the data were processed

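The tools fastp, HISAT2 and HTSeq and the build dm6 are named in the submitters' processing notes, with no versions, annotation or strand setting. The deposited signal is a normalized read count per row, and in each column 100% of values were whole multiples of 1 step at a tolerance of 0.001. The results above take only adjusted p from the authors' deposited table of log2 fold changes and p-values. Its log2 fold changes were far smaller than those of limma for the 8 members other than Dscam1. For Dscam1 the deposited log2 fold change was 0.13, against 0.17 in limma. The 3 special HTSeq rows (11.5% to 13.9% of all values) stayed out.

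Genomic positions and exonic lengths (union of annotated exons) came from Ensembl BDGP6.54 in dm6 coordinates, matched for 8649 rows by symbol and 38 by synonym. limma 3.58.1 in R 4.3.3 (trended empirical Bayes) was fitted to log2(normalized count + 1) of the 7690 rows averaging at least 10, with two-sided p-values adjusted by Benjamini-Hochberg over all of them. This scale understates changes of low genes. Residual degrees of freedom were 2 and the prior gave 14.4. With 2 libraries against 2 the smallest exact permutation p is 0.333.

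The members and lists were chosen with earlier results of these data known, and 1 further list is not reported here. Genes named were all members, the 2 smallest p and any call of each list, the most abundant marker per cell type and the 5 nearest profiles, except where said. Alternatives covered pseudocounts of 0.5 and 5, minimums, scaling, variance moderation, a replicate block, exonic length and each library left out.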

Additional observations from a re-analysis of the deposited data

How the results depend on the processing

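The 30 called rows became 14 with quantile normalization, 59 with robust empirical Bayes and from 41 to 127 when a library was left out (50 without knockdown library 1, 41 without knockdown library 2, 74 without control library 1 and 127 without control library 2). With the replicate block there were 146 calls. The prior degrees of freedom, 14.4 in the main fit, became infinite with the replicate block and without either control library. The larger counts in these fits therefore also follow the changed variance moderation. Same-numbered libraries showed no shared deviation (r = -0.033 across 6826 genes, which are not independent). This value cannot exclude that they were handled as pairs, since counting noise in each row may hide a shared deviation. Of the members, 0 were called in limma with no minimum, with median centring, with quantile normalization or after the length correction, with 1 at an unadjusted p under 0.05 in each, and from 0 to 1 when a library was left out. In the other lists, with 0 called genes, 3 were called with the replicate block (dally, dlp and Vrp1) and from 0 to 1 when a library was left out (fra, without control library 2).

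Signs turned for 4 members near 0. After the length correction robo1 stood at -0.0097, Abl at -0.012 and ena at -0.0080, and with quantile normalization ena stood at -0.036. Leaving out a library gave -0.025 to 0.043 for robo1, -0.012 to 0.058 for Abl, -0.014 to 0.030 for ena and -0.16 to 0.062 for Lar. The cause was not tested. Dscam1, Nrg, dock, Pak and trio kept a positive sign in every setting run, though trio ranged from 0.0040 to 0.053, Nrg from 0.0051 to 0.13, dock from 0.0064 to 0.025 and Pak from 0.031 to 0.061. A fit without a library assumes that the lone library varies like the other group. The planned TMM factors, edgeR and DESeq2 were not run, because the step of 2 columns was too near 1 for its multiples to be accepted as recovered reads. Low counts limit Lar, whose interval spans -0.40 to 0.31. The part of the exon overlap with CG46244 in these low counts was not tested.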

Other observations

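Genes beside the members on the chromosome were also read, since Cap-H2 belongs to a complex that shapes chromosomes. The nearest tested gene on each side of each member, with any tested gene overlapping it, gave 19 genes. Of these 0 passed limma (lowest adjusted p = 0.68), against 0.325% of all tested rows called higher and 0.065% called lower. An unadjusted p under 0.05 was found for 0 of the 19, against 8.13% of all tested rows. At these shares few or none of 19 genes would be found, so nothing is read from these counts. The median log2 fold change of the 19 was -0.02, with a range from -0.19 to 0.44. Both ends belonged to low genes beside trio, bab1 and Glut1. The neighbours of Dscam1 were Incenp, 36.1 kb away, with a log2 fold change of -0.06 (SE 0.04), and cos, 0.277 kb away, with -0.04 (SE 0.05). Incenp had 2988 and 3019 normalized read counts in the knockdown libraries against 3265 and 3020 in the control libraries, lower in the knockdown without overlap by less than 1 count. cos had 1528 and 1582 normalized read counts in the knockdown libraries against 1623 and 1576 in the control libraries, so its groups overlapped. This set of neighbours was chosen after the values of the members were known.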
